A study of Homo sapiens with 8 samples.

Results

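The long noncoding RNAs MALAT1, NEAT1 and H19 and the small nucleolar RNA (snoRNA) host genes GAS5, SNHG1, SNHG5, SNHG7, SNHG8, SNHG12 and SNHG15 were followed over 8 two-colour microarrays. The probes were every noncontrol probe that the scanner files name for one of these 10 genes. They are 10 of 43579 gene names on the array and have 30 of its 58201 probes, from 1 probe for SNHG12 to 6 for SNHG5. Each of the 30 was 1 spot on each array. Probes of 1 gene share their target, and no n below counts them as replicates. Counts of member probes can hold several probes of 1 gene, so they are not counts of independent readings.

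MALAT1 is an abundant nuclear RNA that concentrates in nuclear speckles, and NEAT1 is the scaffold RNA of paraspeckles. A snoRNA host gene carries its snoRNAs in its introns: splicing releases them to guide modification of ribosomal RNA, and the joined exons form an RNA with little or no coding capacity. Many of these spliced RNAs are degraded by nonsense-mediated decay when they are translated, and several begin with a run of pyrimidines like that of ribosomal protein mRNAs. H19 is an imprinted RNA of fetal tissues that is re-expressed in some tumours.

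Each array set RNA of transfected cells (Cy5) against RNA of untransfected cells of the same line, called mock (Cy3). A498 and 786-O, renal cancer lines, received miR-139-5p or miR-139-3p, 1 array for each line and strand. MDA-MB-231, a breast cancer line, received either of 2 siRNAs against GINS1, a subunit of the GINS complex of the replication fork. HCT116, a colorectal cancer line, received miR-490-5p or miR-490-3p on 1 array each. All oligonucleotides were delivered with Lipofectamine RNAiMAX, no array carried a control oligonucleotide, and all arrays had the same dye order. The response to the delivered sequence, the response to transfection and a dye effect therefore cannot be told apart in a single ratio. Each culture is a bulk sample, so fewer cells making an RNA and less RNA in each cell give the same ratio.

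The number of probes well above background on an array ran from 24980 to 29685, and no member spot was saturated or flagged as an outlier. GINS1 was lower on both siRNA arrays, at -1.31 and -1.92 log2 (mean -1.61, SE 0.15, limma adjusted p = 0.0174, n = 2). Of 6 kidney markers, 4 were higher in both renal cancer lines than in the others, PAX8 at 8.23 and 8.16 against 6.76 and 6.36 (log2 mock level). CUBN was well above background in MDA-MB-231 alone, and CA12 was lower in 786-O, at 8.06, than in MDA-MB-231, at 8.48. Of 6 colon markers, CDX2 and EPCAM were highest in HCT116, and VIL1, CDH17 and LGALS4 were not well above background there. CDX1 was highest in A498, at 7.19 against 6.87 in HCT116. Of 6 breast markers, GATA3 and TRPS1 were highest in MDA-MB-231, at 6.99 and 6.94, and PGR was not well above background. KRT8 and KRT18 were highest in HCT116, at 11.70 and 13.72. ESR1 was highest in A498, at 6.12, and lowest in MDA-MB-231. Values below are log2 ratios of transfected over mock after loess normalization, unless a mock level is named.

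The 4 mature microRNA strands are shown because the treatment of each microRNA array is defined by 1 of them. The sequences are RefSeq entries (GRCh38.p14), with the seed (bases 2 to 8) in capitals. No 2 of the 4 share a seed.
miR-139-5p: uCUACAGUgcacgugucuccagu
miR-139-3p: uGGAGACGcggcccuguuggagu
miR-490-5p: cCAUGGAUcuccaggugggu
miR-490-3p: cAACCUGGaggacuccaugcug
The DNA match to each seed was sought on the transcript strand of the probes only. None of the 4 matches was in any of the 30 member probes (0 of 30 each). Over all 58201 probe sequences, ACTGTAG for miR-139-5p was in 0.32%, CGTCTCC for miR-139-3p in 0.168%, ATCCATG for miR-490-5p in 0.448% and CCAGGTT for miR-490-3p in 0.39%. A probe covers 60 bases, and the rest of each transcript was not searched.

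The member probes that the results turn on are printed next, with their hg19 positions as the scanner files give them. The SNHG7 probes lie on the minus strand of chromosome 9, in order along the transcript.
A_22_P00009029 (chr9:139620797-139620856): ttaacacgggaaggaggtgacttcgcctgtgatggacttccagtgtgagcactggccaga
A_24_P352116 (chr9:139619969-139620028): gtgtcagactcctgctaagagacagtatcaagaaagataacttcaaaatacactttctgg
A_33_P6469777 (chr9:139619188-139619247): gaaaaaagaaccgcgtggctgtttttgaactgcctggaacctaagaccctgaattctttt
A_33_P3280927 (chr9:139619047-139619106): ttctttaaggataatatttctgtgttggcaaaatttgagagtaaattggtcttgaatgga
The files assign these 4 probes to 3 RefSeq transcripts of SNHG7. A_33_P6469777 and A_33_P3280927 share 1, while A_22_P00009029 and A_24_P352116 each have their own. The brightest SNHG15 probe lies on the minus strand of chromosome 7.
A_24_P506977 (chr7:45022851-45022910): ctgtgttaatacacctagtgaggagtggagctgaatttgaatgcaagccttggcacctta
The MALAT1 probes lie on the plus strand of chromosome 11, in order along the transcript.
A_21_P0010982 (chr11:65268619-65268678): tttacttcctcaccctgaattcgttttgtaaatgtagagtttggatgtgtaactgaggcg
A_22_P00014171 (chr11:65270980-65271039): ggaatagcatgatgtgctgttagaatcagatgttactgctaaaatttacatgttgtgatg
A_19_P00325158 (chr11:65273714-65273773): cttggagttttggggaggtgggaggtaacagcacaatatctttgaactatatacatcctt
A_22_P00024689 (chr11:65273871-65273930): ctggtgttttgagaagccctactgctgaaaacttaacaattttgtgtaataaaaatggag
A pair of SNHG5 probes on the minus strand of chromosome 6 shows how close readings of near-identical probes were, since they share the 59 bases in capitals.
A_19_P00322944 (chr6:86387513-86387572): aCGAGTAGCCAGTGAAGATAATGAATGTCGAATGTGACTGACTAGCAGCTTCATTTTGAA
A_19_P00321511 (chr6:86387513-86387571): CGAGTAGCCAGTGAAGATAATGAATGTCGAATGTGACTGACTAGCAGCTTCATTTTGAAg

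RefSeq start entries were found for 8 of the 10 genes. The first 30 bases are shown for the genes whose transcript opens with C in a run of 4 or more pyrimidines (the run in capitals, GRCh38.p14).
SNHG5 (chr6:85678704-85678733, minus strand): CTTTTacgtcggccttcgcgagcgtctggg
SNHG7 (chr9:136728155-136728184, minus strand): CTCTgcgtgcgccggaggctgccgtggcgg
SNHG12 (chr1:28581844-28581873, minus strand): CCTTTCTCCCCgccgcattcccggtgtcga
These were 3 of the 9 member entries (MALAT1 has 2), and the same opening was in 5.45% of all 35116 entries. The start is the annotated one, and the arrays do not measure where transcription began in these cells.

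The mock levels of most of these genes differed between the cell lines by more than the paired mock channels did. The highest line exceeded the lowest by at least 1 log2 unit for 24 of the 28 member probes measured, with a median range of 2.03, against 26.5% of all 29677 probes measured and a median range of 0.54. These differences carry no test, because the deposited names give both arrays of a line the same mock identifier. The SD of the difference between the mock channels of both arrays of a line was 0.07 to 0.10 over probes well above background, and the largest such difference for a member probe was 0.26. Levels are given for each gene's brightest probe and are not set against those of another gene. The members were not matched to all probes by brightness, and the dim probes of SNHG1 (A_33_P3507562) and H19 (A_24_P52697) ranged by only 0.11 and 0.30. The part of brightness in the wider range of the members was not tested.

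SNHG5, the host of the SNORD50 snoRNAs, varied most. Its mock level was 10.53 and 10.68 on the A498 arrays, 12.38 and 12.32 in HCT116, 13.29 and 13.26 in MDA-MB-231, and 13.59 and 13.60 in 786-O. The order was 786-O, MDA-MB-231, HCT116 and A498, with no overlap between neighbours, and the same order held for all 6 SNHG5 probes. The distance from A498 to 786-O was 2.99 log2 (7.93-fold), and 2.89 to 3.36 over the 6 probes. The renal cancer lines thus stood at opposite ends for this gene.

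The order was different for GAS5, SNHG12 and SNHG15. GAS5, which hosts C/D box snoRNAs and is known as a growth arrest-specific transcript, read 13.91 and 13.80 in A498 and 13.95 and 13.94 in HCT116, but 12.24 and 12.25 in 786-O and 12.34 and 12.24 in MDA-MB-231. The arrays of 786-O and MDA-MB-231 overlapped. SNHG12, with both H/ACA and C/D box snoRNAs in its introns, read 11.27 in A498, 10.84 in HCT116, 9.12 in 786-O and 8.74 in MDA-MB-231 (means of 2 arrays). SNHG15, the host of SNORA9, read 10.31 in A498 and 9.62 in HCT116 and overlapped between 786-O, at 8.21, and MDA-MB-231, at 8.17. All 3 genes were therefore higher in A498 and HCT116 than in the other lines.

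SNHG1, SNHG7 and SNHG8 were highest in HCT116 and lowest in 786-O. SNHG1, which carries C/D box snoRNAs, read 11.60 in HCT116 and 9.72, 9.61 and 9.18 in A498, MDA-MB-231 and 786-O. SNHG7, the host of SNORA17 and SNORA43, read 12.66, 11.26, 10.51 and 10.19 in the same order. SNHG8, the host of SNORA24, read 12.88, 12.37, 11.90 and 10.75 in the same order. No neighbours overlapped for these 3 probes. The dim SNHG7 probe A_24_P352116 was lowest in A498, at 6.17.

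MALAT1 and NEAT1 were lowest in A498 and highest in MDA-MB-231 for their brightest probes. MALAT1 read 13.03 in MDA-MB-231, 12.47 in HCT116, 11.96 in 786-O and 11.52 in A498. A498 was lowest for all 4 MALAT1 probes, but the highest line was MDA-MB-231 for 1 of them, 786-O for 2 and HCT116 for 1. NEAT1 read 12.41 in MDA-MB-231, 11.25 in 786-O, 10.68 in HCT116 and 9.86 in A498, and its 3 probes shared the highest and the lowest line.

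H19 was at the limit of detection. Its brighter probe was well above background in A498, at a mean of 6.06, and in HCT116, at 5.95, and on no array of 786-O or MDA-MB-231. A498 was at least 1.15-fold higher than 786-O and at least 1.21-fold higher than MDA-MB-231. The other H19 probe was not well above background in any mock sample. H19 ratios are not interpreted further.

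**Figure D1:**
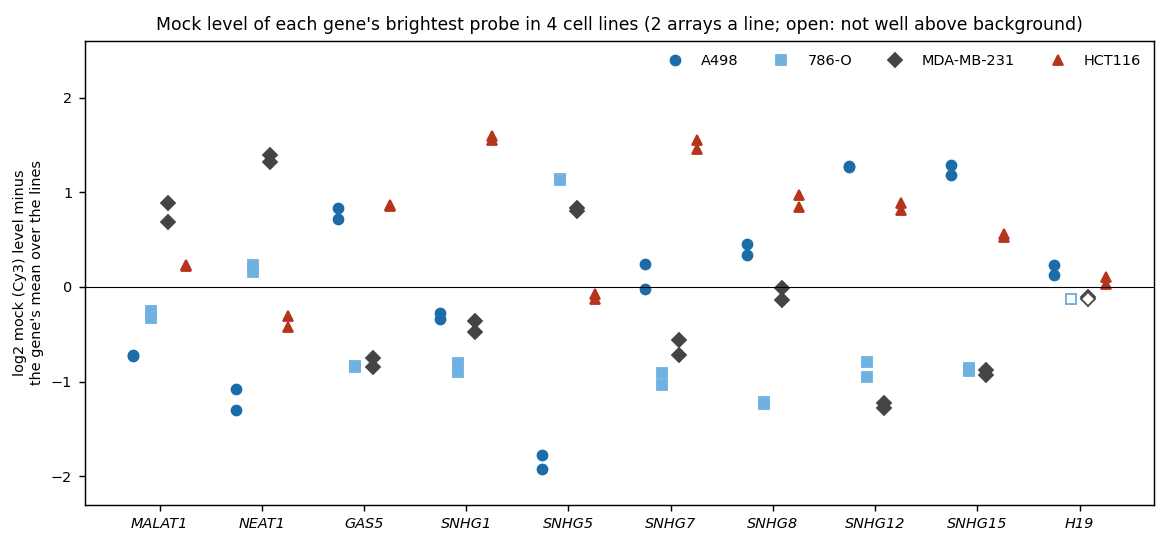
Mock (Cy3) log2 level of the brightest probe of each gene, on the y axis as the difference from that gene's mean over the 4 lines, with 1 point for each of the 2 arrays of a line (open symbols, not well above background). SNHG5 spans 2.99 log2 units with A498 lowest, GAS5, SNHG12 and SNHG15 are high in A498 and HCT116, and H19 spans 0.30.

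The siRNA arrays ask which genes change when GINS1 is lowered in MDA-MB-231. SNHG15, GAS5, SNHG1 and SNHG7 had positive mean ratios, but none of the 27 member probes measured passed the limma test (lowest adjusted p = 0.0731), against 6.96% of all 27803 probes tested. At an unadjusted p under 0.05 in limma there were 8 of the 27 member probes, against 7214 of all 27803. The 2 siRNAs differed by over 1 log2 unit for SNHG7 and SNHG15.

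SNHG15 was the member furthest from its mock. Its brightest probe stood at 1.67 with siRNA 1 and 0.65 with siRNA 2, and the other probes at 1.70 and 0.64 and at 1.49 and 0.38. All 6 readings were above 0, and siRNA 1 was higher for each probe. The mean of the brightest probe was 1.16 ± 0.72 (SD, n = 2; SE 0.26, limma adjusted p = 0.0731). The call depended on the processing and on the model. The limma adjusted p was 0.0459 with a background offset of 10, 0.0487 without background correction and 0.131 with the scanner's own log ratios. It was 0.542 with the siRNA arrays alone and 0.00458 with the cell line as a random block, which called 10520 of all 27803 probes.

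SNHG7 differed between the siRNAs. Its brightest probe read 1.44 with siRNA 1 and -0.01 with siRNA 2. The probes A_22_P00009029 and A_33_P3280927 read 1.56 and 1.34 with siRNA 1, and 0.20 and 0.02 with siRNA 2. The 3 probes thus agreed on a ratio above 1 log2 unit on 1 array and readings of -0.01 to 0.20 on the other. A_24_P352116 read 0.53 and 0.20, the smallest siRNA 1 value of the 4.

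On the siRNA 1 array, 6 of the 27 member probes measured stood at or above 1, all of SNHG7 or SNHG15, against 0.876% of all probes measured on it. Taking siRNA 2 minus siRNA 1, the same 6 probes were at least 1 log2 unit apart, from -1.02 to -1.45, against 4.8% of all 27803 probes measured on both arrays. With 1 array for each siRNA, this difference has no replicate check.

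GAS5 was above its mock with both siRNAs. Its brightest probe read 0.18 and 0.63 (mean 0.41 ± 0.32 SD, n = 2, limma adjusted p = 0.175), and its other probe 0.57 and 0.82 (mean 0.69 ± 0.17 SD, n = 2, limma adjusted p = 0.0785). The brightest probe was called under median centring (mean 1.01, limma adjusted p = 0.0482) and with the cell line as a random block (limma adjusted p = 0.0119). Of all 27803 probes, median centring called 2974 and the block 10520. The block does not vary within the siRNA group, since both arrays are of MDA-MB-231. SNHG1 read 0.60 and 0.08. With SNHG15, these genes were positive on both arrays for each probe well above background on all 8 arrays.

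MALAT1 and SNHG5 were on opposite sides of 0 with the 2 siRNAs. The 4 MALAT1 probes read -0.49, -0.39, -0.18 and -0.16 with siRNA 1 and 0.22, 0.43, 0.58 and 0.76 with siRNA 2, in order along the transcript. The 6 SNHG5 probes read -0.56 to -0.47 with siRNA 1 and 0.06 to 0.19 with siRNA 2. Both negative readings depended on the scaling: centring on the median of each array in place of loess turned them to 0.11 to 0.38 for MALAT1 and 0.07 to 0.30 for SNHG5, while it moved the median of all measured probes on that array from 0.02 to 0.16.

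SNHG8, SNHG12 and NEAT1 were nearer to their mock. SNHG8 read -0.02 and 0.16, and SNHG12 0.02 and 0.18. The brightest NEAT1 probe read -0.05 and -0.44, and the other NEAT1 probes -0.09 and -0.04 with siRNA 1 and 0.15 and 0.18 with siRNA 2. The NEAT1 probes disagreed in sign on the siRNA 2 array. Under median centring SNHG8 read 0.69 and 0.60, SNHG12 0.52 and 0.44, and the NEAT1 probes 0.38 to 0.69 with siRNA 1, and probes of NEAT1 and SNHG8 were then among 4 member probes called.

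**Figure D2:**
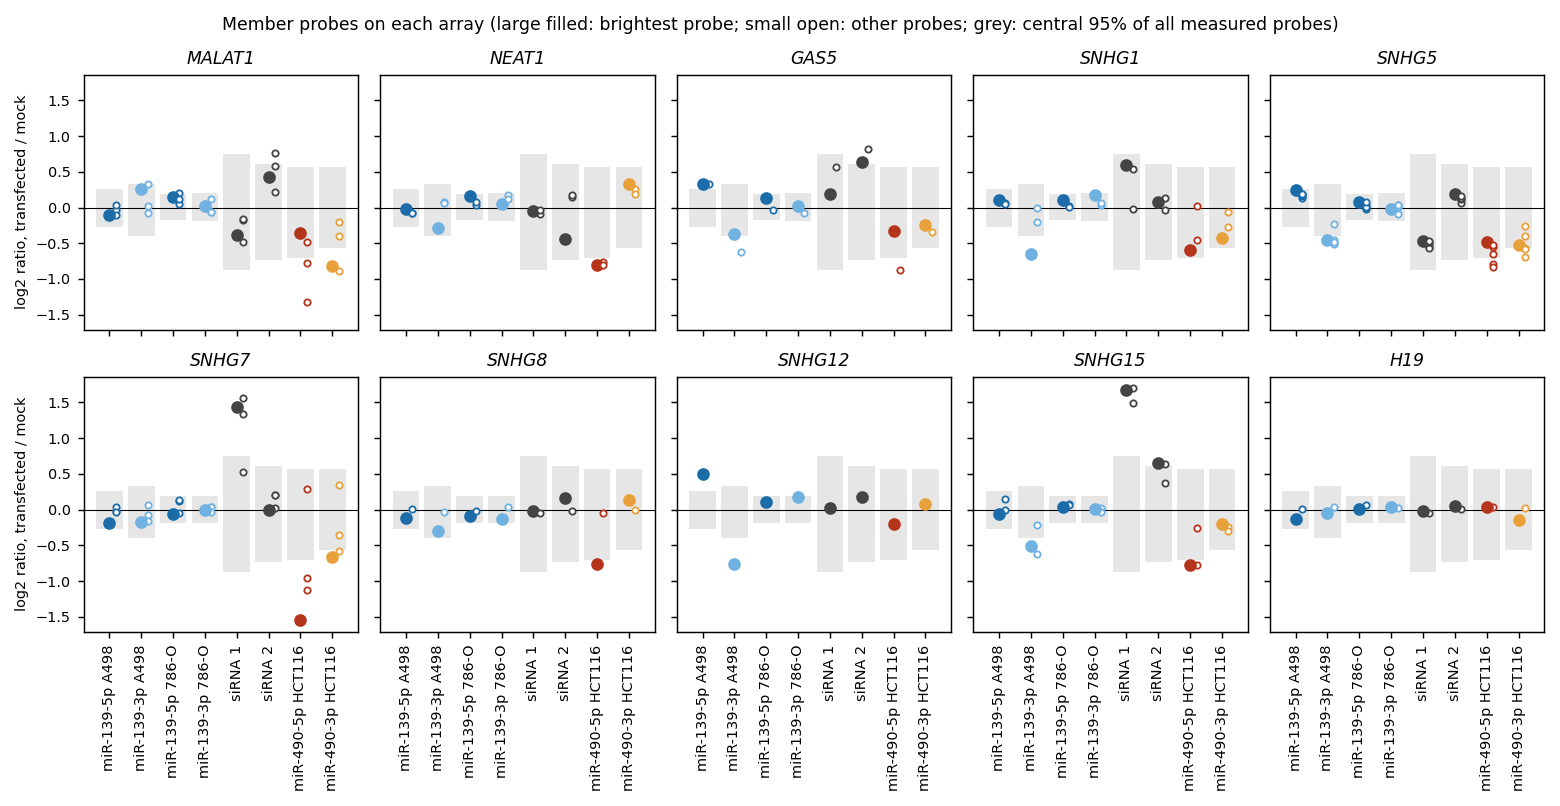
Log2 ratio of transfected over mock (y axis) of every member probe on each of the 8 arrays (x axis), with a panel for each gene; large filled points are the brightest probe, small open points the others, and grey bars the central 95% of all measured probes of that array. All SNHG15 probes and 3 of the 4 SNHG7 probes lie above the grey bar with siRNA 1, and SNHG7 reaches -1.55 with miR-490-5p.

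The miR-490 arrays ask what either strand does in HCT116, with 1 array for each strand and no test. With miR-490-5p, 25 of the 29 member probes measured were below 0, with a median of -0.65, against 47.4% of all 27929 probes and a median of 0.01. Read by the brightest probe of each gene, 9 of 10 were below 0 and 1 was lower by at least 1 log2 unit. At least 1 log2 unit was reached by 3 member probes, all lower, against 1.23% of all probes in either direction. The count moved with the processing, always among lower probes. It was 2 under median centring, 6 with the scanner's own log ratios, and 7 with an offset of 10, without background correction or with the dye bias removed. The share of all probes lower by at least 1 was 0.963% in the main setting and 0.659%, 3.91%, 1.87%, 1.61% and 0.949% in those 5.

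SNHG7 had the lowest value. Its brightest probe read -1.55 on the miR-490-5p array and -0.66 on the miR-490-3p array. A_22_P00009029 read -1.12 and -0.36, and A_33_P3280927 read -0.96 and -0.58. Again A_24_P352116 stood apart, at 0.29 and 0.34, above 0 on both arrays. It was also the dimmest SNHG7 probe, at a mean log2 intensity of 6.88 against 8.81 to 11.07, and the part of brightness was not tested. These arrays share a mock by their deposited names, so the strands are set side by side and not treated as 2 independent readings.

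SNHG15, GAS5, SNHG8, SNHG1 and SNHG5 were also below their mock with miR-490-5p. The brightest SNHG15 probe read -0.77, SNHG8 -0.77, SNHG1 -0.59, SNHG5 -0.48 and GAS5 -0.34. On the miR-490-3p array the same probes read -0.20, 0.13, -0.42, -0.53 and -0.25, so SNHG8 alone of these 5 was above 0. SNHG12 read -0.20 and 0.07. Under median centring the miR-490-3p readings of SNHG15 and GAS5 turned to 0.11 and 0.23. The member probes below 0 with miR-490-3p went from 21 of 28 to 16 of 28, while the share of all measured probes went from 48.5% to 33.8%. With miR-490-5p the member count stayed at 25 of 29, while the share of all measured probes went from 47.4% to 37.1%.

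NEAT1 and the end of MALAT1 differed between the strands. The miR-490-5p array gave -0.76, -0.81 and -0.81 for the 3 NEAT1 probes, and the miR-490-3p array 0.26, 0.33 and 0.19. All 3 were on opposite sides of 0 with the 2 strands. Taking miR-490-3p minus miR-490-5p, 3 of 28 member probes measured on both arrays stood at least 1 log2 unit apart, 2 of NEAT1 (1.01 and 1.14) and 1 of MALAT1 (1.12), against 1.17% of all 26881 probes. With miR-490-3p, 0 of 28 member probes reached 1 log2 unit, against 0.924% of all 28356 probes.

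The MALAT1 probes did not move as 1 unit. In order along the transcript, at 0, 2361, 5095 and 5252 bases from the first probe, they read -0.48, -0.35, -0.78 and -1.32 on the miR-490-5p array and -0.89, -0.82, -0.40 and -0.20 with miR-490-3p. The pair near the end was the lower one on the miR-490-5p array and the higher one on the other, and this was also so under median centring (-0.70 and -1.21 against -0.29 and -0.10, then -0.25 and 0.05 against -0.55 and -0.42). The pair near the end was also the dimmer one, at a mean log2 intensity of 7.12 and 8.42 against 10.21 and 12.18, and the part of brightness in the pattern was not tested. The overlapping SNHG5 probes printed above read -0.83 and -0.78 on the miR-490-5p array, then -0.26 and -0.40 with miR-490-3p, so near-identical probes differed by up to 0.14.

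**Figure D3:**
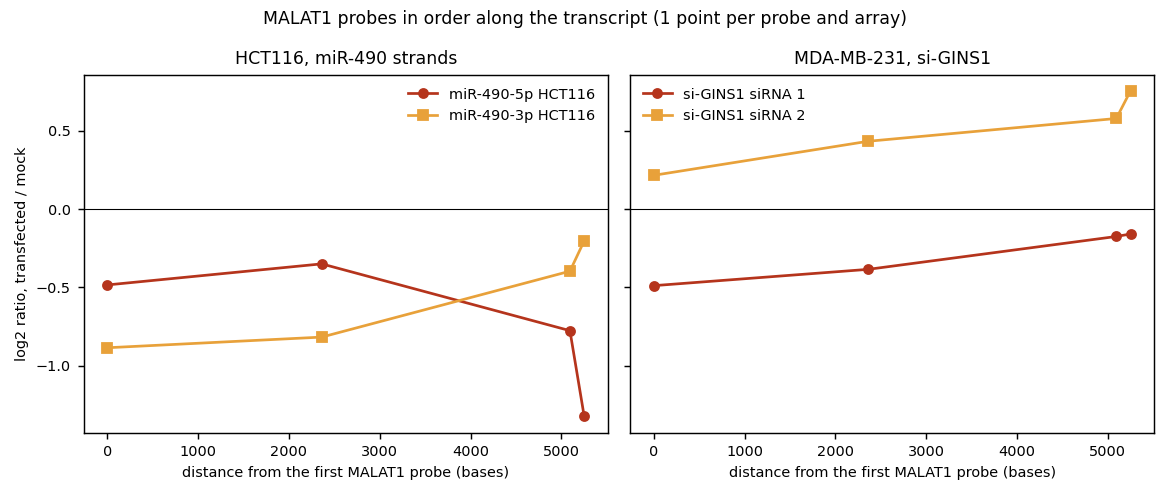
Log2 ratio of transfected over mock (y axis) of the 4 MALAT1 probes against their genomic distance in bases from the first probe (x axis), on the HCT116 arrays (left) and the MDA-MB-231 arrays (right), 1 point for each probe and array. The last probe reads -1.32 on the miR-490-5p array and -0.20 on the other.

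**Figure D4:**
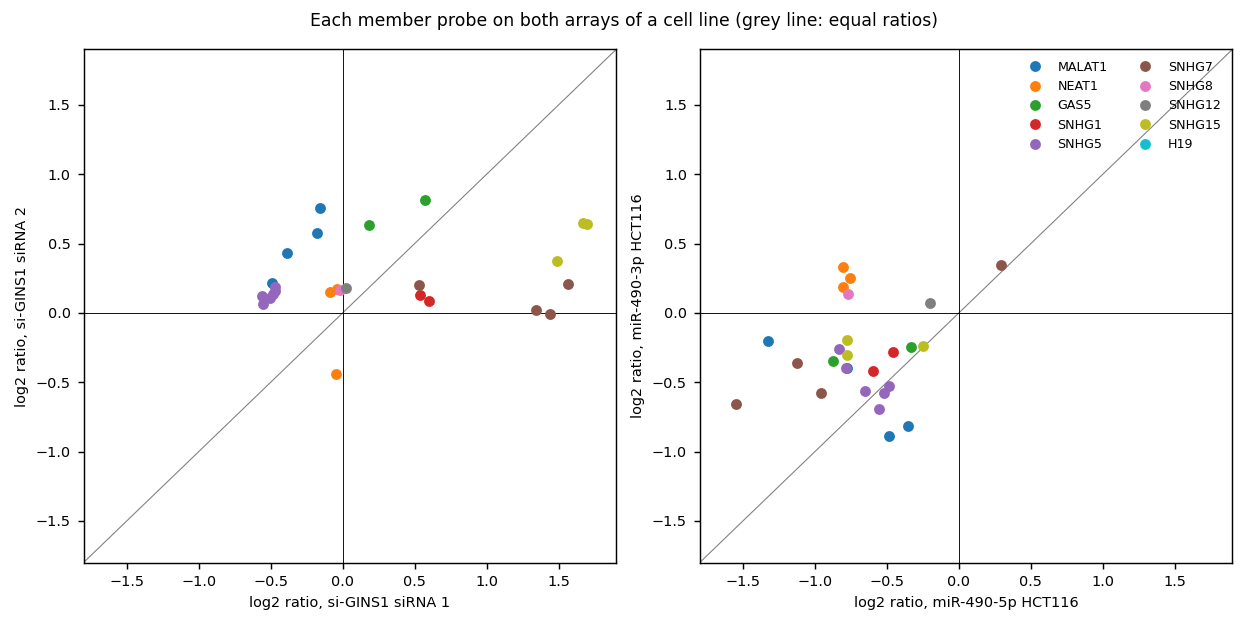
Log2 ratio of each member probe on both arrays of a line, siRNA 1 (x axis) against siRNA 2 (y axis) on the left and miR-490-5p (x axis) against miR-490-3p (y axis) on the right; the grey line marks equal ratios, and probes well above background on 4 arrays or fewer are left out. SNHG7 and SNHG15 lie to the right of the line with siRNA 1, and NEAT1 lies above it with miR-490-3p.

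The miR-139 arrays ask what each strand does in 2 renal cancer lines. Of 26 member probes measured, 0 passed the limma test for miR-139-5p, against 0.0129% of all 23288 probes tested, and 0 for miR-139-3p, against 0% of 22813. At an unadjusted p under 0.05 there were 0 and 1 member probes, against 593 and 1014 of all probes. For miR-139-3p minus miR-139-5p, 0 of 26 passed, against 0% of 22178, and 0 members were at an unadjusted p under 0.05, against 151 of all probes. Each strand had 1 array in each line, and the limma fit pools this spread with the gap between the 2 siRNAs.

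The readings in A498 were wider than those in 786-O, as they were over all measured probes, of which the central 95% lay between -0.40 and 0.33 for miR-139-3p in A498 and between -0.19 and 0.20 in 786-O. In A498 SNHG12 read 0.50 with the 5p strand and -0.76 with the 3p strand, and 0.10 and 0.17 in 786-O. The strand difference was thus -1.26 in A498 and 0.07 in 786-O (mean -0.59 ± 0.94 SD, n = 2, limma adjusted p = 1). GAS5 followed with 0.33 and -0.37 in A498 and 0.14 and 0.02 in 786-O, and SNHG5 with 0.24 and -0.45 in A498 and 0.08 and -0.02 in 786-O.

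With miR-139-3p in A498, SNHG1 read -0.65 and SNHG15 -0.51, against 0.11 and -0.06 with miR-139-5p. On that array 21 of the 27 member probes measured were below 0 (median -0.24), against 49% of all measured probes (median 0.00). Under median centring the member count was 19 of 27 (median -0.15), against 37.6% of all measured probes (median 0.04). MALAT1 went the other way, with its brightest probe at 0.26 and the end probe at -0.07. In 786-O every member probe measured was within 0.20 of its mock on both arrays.

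SNHG8 was the member nearest to a shift shared by both lines. It read -0.30 in A498 and -0.13 in 786-O with miR-139-3p (mean -0.22 ± 0.12 SD, n = 2, limma adjusted p = 1), and -0.12 and -0.10 with miR-139-5p. All 4 readings were below 0 but small. Under median centring the miR-139-3p mean was 0.0043, with 0.08 in 786-O, and the miR-139-5p reading in A498 turned to 0.38. GAS5, SNHG5 and SNHG12 also shared a sign between the lines with miR-139-5p, GAS5 at 0.33 and 0.14 (mean 0.23). SNHG7 was within 0.20 of its mock on all 4 arrays for each of its probes.

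Genes with related roles were read through fixed lists, each gene by its brightest probe. Of 15 measured noncoding snoRNA hosts outside the member set, 3 were called with si-GINS1, all higher, beside 6.96% of all probes tested (median of the list 0.35, against 0.01 over all probes tested). SNHG16 read 0.76 and 0.48 (mean 0.62, SE 0.08, limma adjusted p = 0.0252), DANCR 0.41 and 0.51 (mean 0.46, SE 0.07, limma adjusted p = 0.0344) and SNHG20 0.40 and 0.39 (mean 0.39, SE 0.06, limma adjusted p = 0.0295). All 3 stayed positive on both arrays under the other scalings, but with a variance trend and robust prior, or with the siRNA arrays alone, limma called 0 of all probes (8 and 2 member probes at an unadjusted p under 0.05). This holds for the calls of the other lists too, and 1 call in 7 or 10 genes is not read as a result about a list. With miR-490-5p, SNHG16 was also the only host of this list past 1 log2 unit, at -1.36. The 14 protein-coding snoRNA hosts measured had a median of -0.01 with si-GINS1.

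The snoRNAs carried by the members were read by 21 probes. None was called with si-GINS1, and the list's median was 0.08. At an unadjusted p under 0.05 in limma there was 1 of 21, against 7214 of all 27803 probes. SNORA9 of SNHG15 read -0.09 with siRNA 1 and 1.17 with siRNA 2, where its host read 1.67 and 0.65. SNORA24 of SNHG8 read -0.94 and 0.43, where its host read -0.02 and 0.16. With miR-490-5p the list's median was -0.04 and no snoRNA passed 1 log2 unit. The members' median over brightest probes was -0.54, but these medians are not of matched genes. The 21 probes are for snoRNAs of GAS5, SNHG1, SNHG8, SNHG12 and SNHG15, with none for SNHG5 or SNHG7. Some were dim in the HCT116 mock, such as SNORD75 at 6.02 and SNORD77 at 6.11, and the part of brightness was not tested. How well these probes separate a mature snoRNA from its precursor was not tested.

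Of 10 nonsense-mediated decay factors, which act on many spliced host RNAs, 1 was called with si-GINS1, beside 6.96% of all probes tested. SMG8 was higher at 0.44 and 0.28 (mean 0.36, SE 0.06, limma adjusted p = 0.0344), and the median of the list was 0.23. SMG5 read 1.01 and 0.11. Of 13 paraspeckle and nuclear speckle proteins, 3 were called with si-GINS1, beside the same 6.96% of all probes tested. The paraspeckle protein SFPQ was lower (mean -0.61, SE 0.06, limma adjusted p = 0.0188) and so was the splicing factor SRSF2 (mean -0.41, SE 0.06, limma adjusted p = 0.0344), though under median centring SFPQ read -0.17 and SRSF2 turned to 0.07, while the speckle protein SON was higher (mean 0.52, SE 0.06, limma adjusted p = 0.0211). NONO, the partner of SFPQ in paraspeckles, read -0.16 and 0.04.

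Among other long noncoding RNAs, 0 of 16 measured were called with si-GINS1. CYTOR stood at 1.04 with miR-490-5p and at 0.95 with miR-490-3p. At an unadjusted p under 0.05 in limma there were 5 of 16 with si-GINS1, against 7214 of all 27803 probes. In the H19 neighbourhood, 1 of 7 measured genes was called with si-GINS1, beside 6.96% of all probes tested. The imprinted gene PHLDA2 was lower (mean -0.54, SE 0.07, limma adjusted p = 0.0264) but turned to 0.02 under median centring. It read -1.65 on the miR-490-5p array. IGF2 read 8.31 in the HCT116 mock and 6.41, 5.93 and 5.94 in A498, 786-O (well above background on 1 of 2 arrays) and MDA-MB-231. No gene of these lists was called with miR-139-5p or miR-139-3p (limma). At an unadjusted limma p under 0.05, the largest count with miR-139-5p was 4 of 14 protein-coding hosts, against 593 of all 23288 probes. With miR-139-3p it was 3 of 13 paraspeckle and nuclear speckle proteins, against 1014 of all 22813 probes. All other counts were 2 or fewer.

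The closest patterns over the 8 ratios were sought for the 6 genes whose brightest probe spanned at least 1 log2 unit, among 2835 genes with as wide a span. For SNHG7 the closest named gene was XBP1, a transcription factor of the unfolded protein response (Pearson r = 0.993 over 8 arrays), and for SNHG15 MAPKAPK5-AS1 (r = 0.982). NEAT1 was closest to PITX1 (r = 0.979) and TUBB4B (r = 0.938), and MALAT1 to WDR19 (r = 0.954) and ZNF581 (r = 0.951). SNHG1 was closest to NFE2L1 (r = 0.933), and SNHG12 had VKORC1 (r = 0.931). The 8 points share a slide and, in pairs, a cell line and mock, so these values describe likeness on these arrays.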

How the data were processed

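Total RNA was hybridised by the authors to 8 Agilent two-colour arrays of 1 slide, with mock RNA in Cy3 and transfected RNA in Cy5 and no dye swap. The deposited scanner files (Agilent Feature Extraction 11.5.1.1 per the file headers) hold spot intensity in each channel and log10 ratios. The deposited series table holds the same log10 ratios and served as the scanner alternative. The member genes and lists were chosen with earlier results of these data known. Intensities were corrected with normexp (offset 50), normalized by loess within each array without the 2075 control spots, and averaged over the spots of a probe, leaving out 112 to 194 outlier-flagged spots an array (R 4.3.3, limma 3.58.1). Probes entered a test if each array of the comparison had them well above background in Cy3 or Cy5. limma fitted 5 group means over 8 arrays, with Benjamini-Hochberg adjustment and a threshold of 0.05. Nothing says that arrays of a group came from separate cultures, so p-values measure the spread between these samples. Single arrays were read with a size of 1 log2 unit and no test. Mock levels used Aquantile after loess. The number of arrays limits precision. Named genes were all members, and at most 3 listed genes per list and comparison that were called or past 1 log2 unit, with a few further values chosen after they were seen (SMG5, NONO, IGF2 and the lineage markers). Deviations of the miR-139 arrays of a line correlated at 0.0753 over 22178 probes, and pairing comes from the shared line. The fit was tested on simulated data. The calls among protein-coding snoRNA hosts are not reported here. Alternatives are in the closing section.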

Additional observations from a re-analysis of the deposited data

Results flagged for a closer look

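For NEAT1 both miR-139 arrays of A498 were below 0 and both of 786-O above 0 (brightest probe, means -0.15 and 0.11, a difference of 0.26 log2). The other NEAT1 probes did not show this split. For SNHG15 the same held, with means of -0.28 and 0.02 and a difference of 0.30 log2. The SNHG15 probe A_22_P00015052 came close to this split, at -0.0007 and -0.63 in A498 and 0.06 and -0.03 in 786-O. A_22_P00015051 did not show it, at 0.14 in A498 with miR-139-5p. Under median centring the miR-139-5p reading in A498 was 0.36 for NEAT1 and 0.35 for SNHG15, so the split was not seen there. Neither difference between the lines was tested.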

How the results depend on the processing

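For si-GINS1 the count of member probes called went from 0 to 2 with an offset of 10, 1 without background correction, 4 with median centring and 10 with the cell line as a random block, and to 5 to 9 when 1 siRNA array was left out, where the remaining array is assumed to vary like the other groups. It was 5 without siRNA 1 (GAS5, MALAT1 and SNHG15) and 9 without siRNA 2 (SNHG1, SNHG5, SNHG7 and SNHG15). The 4 calls under median centring were of GAS5, NEAT1 and SNHG8. For miR-490-5p the count past 1 log2 unit went from 3 to 7 with an offset of 10, 7 without background correction, 6 with scanner log ratios and 7 with the dye bias removed, and to 2 with median centring; the share of all probes lower by at least 1 went from 0.963% to 1.87%, 1.61%, 3.91%, 0.949% and 0.659% in turn. For miR-490-3p minus miR-490-5p the count went from 3 to 6 with median centring and 5 with scanner log ratios. The share of all probes was 1.17% in the main setting and is not given for those alternatives. The moves in this count are therefore not read as a result about the members. SNHG8 with miR-139-3p turned from -0.22 to 0.0043 under median centring. The cause of these moves was not tested. The replicate block by cell line left the miR-139 strand difference at 0 member calls in limma (7 at an unadjusted p under 0.05) and changed no call. Over all probes, the 1936 si-GINS1 calls became 2974 with median centring, 75 with scanner log ratios, 1113 with the dye bias removed, 10520 with the random block, 6709 without siRNA 1, 9470 without siRNA 2, and 0 with the siRNA arrays alone or with a variance trend and robust prior. The 3 calls for miR-139-5p ran from 0 to 7 and the 0 for miR-139-3p up to 13 over the alternatives. The baseline count of 24 stayed within 1.5 times in the alternatives run. The 2 arrays of a group, with 3 residual degrees of freedom over the fit, and dim probes (H19, 1 probe each of SNHG1 and SNHG8) limit these results.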
